A study of Homo sapiens with 12 samples.

Results

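The steroid hormone receptors of the uterus were described here as 8 genes of the count table, which were the rows with the symbols ESR1, ESR2, GPER1, PGR, NR3C1, NR3C2, NR2F1, and NR2F2 out of 60649 rows. They were followed in 12 RNA-seq libraries of 2 established uterine leiomyosarcoma (uLMS) cell lines, SK-UT-1B, which came from a primary tumor, and SK-LMS-1, which came from a vulvar metastasis. For 72 h, SK-UT-1B received either the solvent DMSO (libraries 4-1 and 4-2) or gemcitabine, docetaxel, and MK-0752 together at IC30, called the combination below (libraries 3-1 and 3-3). SK-LMS-1 received for the same time MK-0752 alone at IC30 (libraries 2-2 and 2-3), the combination (libraries 4-1 and 4-2), or DMSO, for which 2 sets were sequenced, DMSO set 2 (libraries 2-1 and 2-3) and DMSO set 4 (libraries 4-1 and 4-2). The IC30 was set for each line and each treatment on its own, so MK-0752 was at a lower concentration in the combination than alone, and the SK-LMS-1 arms differ in its dose as well as in the added drugs. MK-0752 inhibits gamma secretase, the protease that releases the active part of Notch receptors. Gemcitabine stops DNA synthesis as a false nucleoside, and docetaxel freezes microtubules. All cells grew in EMEM with fetal bovine serum, and the methods for RNA describe a short serum starvation before the drugs were added. Whether the serum was stripped of steroids was not given in the sources used here, and no hormone was added as a treatment. The treated SK-UT-1B libraries carry the set number 3 and their DMSO libraries the number 4, so drug and set cannot be told apart in that line. Each line stands for 1 tumor, and nothing in the labels says that the libraries of a group came from separate cultures, so the p-values measure the spread between these libraries.

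Steroid receptors are transcription factors that bind a hormone, enter or stay in the nucleus, and turn genes on or off at specific DNA sites. In the uterus, estrogen acts through the receptors that ESR1 and ESR2 encode and, at the membrane, through the G protein-coupled receptor of GPER1, while progesterone acts through the receptor of PGR, a gene that estrogen induces. NR3C1 encodes the glucocorticoid receptor and NR3C2 the mineralocorticoid receptor, which also binds cortisol. NR2F1 and NR2F2 encode the COUP transcription factors, related nuclear receptors with no accepted hormone. NR2F2 is known in the uterine stroma for its part in the response to progesterone. Smooth muscle tumors of the uterus are often tested for estrogen and progesterone receptors in the clinic.

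On hg38, with GENCODE v44 gene models, all 8 genes are protein coding. ESR1 lies at chr6:151656691-152129619 on the plus strand, ESR2 at chr14:64084232-64338112 on the minus strand, GPER1 at chr7:1082208-1093815 on the plus strand, and PGR at chr11:101029624-101129813 on the minus strand. NR3C1 lies at chr5:143277931-143435512 and NR3C2 at chr4:148078762-148444698, both on the minus strand. NR2F1 lies at chr5:93583222-93594611 and NR2F2 at chr15:96325938-96340263, both on the plus strand. Several of them overlap other genes. The libraries were made with a stranded kit, but whether the counting used the strand was not given in the sources used here, so their counts carry that uncertainty. All exons of GPER1 lie within the span of C7orf50, and 31.72% of the exon bases of ESR1 lie within the span of SYNE1, in both cases on the other strand and with 0 shared exon bases. For NR2F1, 51.69% of the exon bases lie within the span of NR2F1-AS1 on the other strand, with 158 shared exon bases.

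RefSeq promoters on GRCh38.p14, from 250 bases before to 50 bases after the start, were found for all 8 genes, in 31 entries. The promoters at the annotated gene start of the genes that differed most between the lines, NR2F1 (chr5:93582972-93583271, plus strand) and NR3C2 (chr4:148444649-148444948, minus strand), are shown because their transcripts carry the main difference below. Capitals mark AGTTCA, a variant of the hexamer that nuclear receptors bind, searched on both strands.
NR2F1: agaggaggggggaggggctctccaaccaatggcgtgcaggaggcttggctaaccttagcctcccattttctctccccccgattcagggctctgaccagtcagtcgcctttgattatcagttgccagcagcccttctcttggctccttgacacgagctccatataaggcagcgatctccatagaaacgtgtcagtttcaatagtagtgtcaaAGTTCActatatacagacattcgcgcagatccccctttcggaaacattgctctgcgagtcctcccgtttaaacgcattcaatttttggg
NR3C2: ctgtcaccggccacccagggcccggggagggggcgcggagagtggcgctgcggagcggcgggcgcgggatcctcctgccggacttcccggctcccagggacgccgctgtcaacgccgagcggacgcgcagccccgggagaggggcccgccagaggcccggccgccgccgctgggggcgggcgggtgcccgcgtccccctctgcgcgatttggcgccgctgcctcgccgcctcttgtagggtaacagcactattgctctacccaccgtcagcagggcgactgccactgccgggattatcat
The NR2F1 promoter held 1 match, at base 212 of the window, and a GC content of 51.3%. The NR3C2 promoter had none of the motifs searched and a GC content of 75.0%. AGTTCA was in 29.0% of the 31 receptor entries, from 6 of the 8 genes, and in 10.4% of all RefSeq promoters of the table. The hexamer AGGTCA was in 9.68% of the receptor entries, all of them from ESR2, and in 13.8% of all promoters. Some entries of a gene overlap, so a site can be counted in more than 1 entry. TGGGAA, which RBPJ, the DNA-binding partner of Notch, recognizes, was in 9.68% and 24.0%, and AGAACA, which glucocorticoid and progesterone receptors recognize, in 9.68% and 14.8%. Other entries of the genes shown differed. Another NR3C2 window (chr4:148442365-148442664) held AGTTCA at base 114. Another NR2F1 window (chr5:93586849-93587148) held both AGAACA and AGTTCA. These matches describe the letters of the windows and no binding.

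The libraries held 25250057 to 40709885 counted reads each. Among genes for which the other libraries of the line gave 5 to 500 expected counts, 17.4% to 34.6% were at 0 in a given library, against 0.0212% to 0.0386% from Poisson sampling of the counts. With equal reading of all RNA molecules, 1 molecule would stand for 10.8 to 27.7 counts, so low counts rest on few molecules. Of 10 smooth muscle markers, 9 were tested between the lines in the DMSO libraries, with 6 called higher (ACTG2, TAGLN, CNN1, CALD1, ACTA2, and SMTN) and 1, DES, lower in SK-LMS-1 (median log2FC 2.43), where 31.1% of all tested genes were called. CALD1, ACTA2, and SMTN were named after their values were seen. DES, the muscle intermediate filament, was at or under 3 counts in all SK-LMS-1 libraries, and had 50 to 282 counts in SK-UT-1B. MYH11 and MYOCD, the defining contractile and regulatory genes of smooth muscle, had few or no reads in either line. MYH11 was at 0 to 5 counts in every library, and MYOCD was at 0 in all SK-UT-1B and all SK-LMS-1 DMSO libraries, with 0 to 36 counts in the treated SK-LMS-1 libraries. The summed level of the 10 was 736 to 960 CPM (counts scaled to the library's effective size) in SK-LMS-1 and 151 to 263 in SK-UT-1B. The 7 epithelial markers summed to 169 to 266 CPM in SK-LMS-1, mostly from keratins, and to 0.637 to 3.58 in SK-UT-1B, with CDH1 at or under 3 counts in both lines. After DMSO, 4 of the 6 tested were called, all higher in SK-LMS-1 (median log2FC 8.68). The 4 endothelial and blood markers summed to at most 9.4 CPM in any library. After DMSO, 1 of these 4 was called, higher in SK-LMS-1 (median log2FC 4.32). This was PECAM1, at 36 to 173 counts in the SK-LMS-1 DMSO libraries against 0 in those of SK-UT-1B. Of 7 markers of uterine and Mullerian patterning, edgeR called 3 higher and 3 lower in SK-LMS-1 in the DMSO libraries, and of 3 tested endometrial stromal markers 1 each way. Of the lower patterning genes, PAX2 and EMX2, named after their values were seen, had 10 to 51 counts in the DMSO libraries of SK-UT-1B and 0 in those of SK-LMS-1, and their calls were lost in 7 and 4 of 11 alternatives. The part of these marker differences in the receptor differences was not tested.

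**Figure D1:**
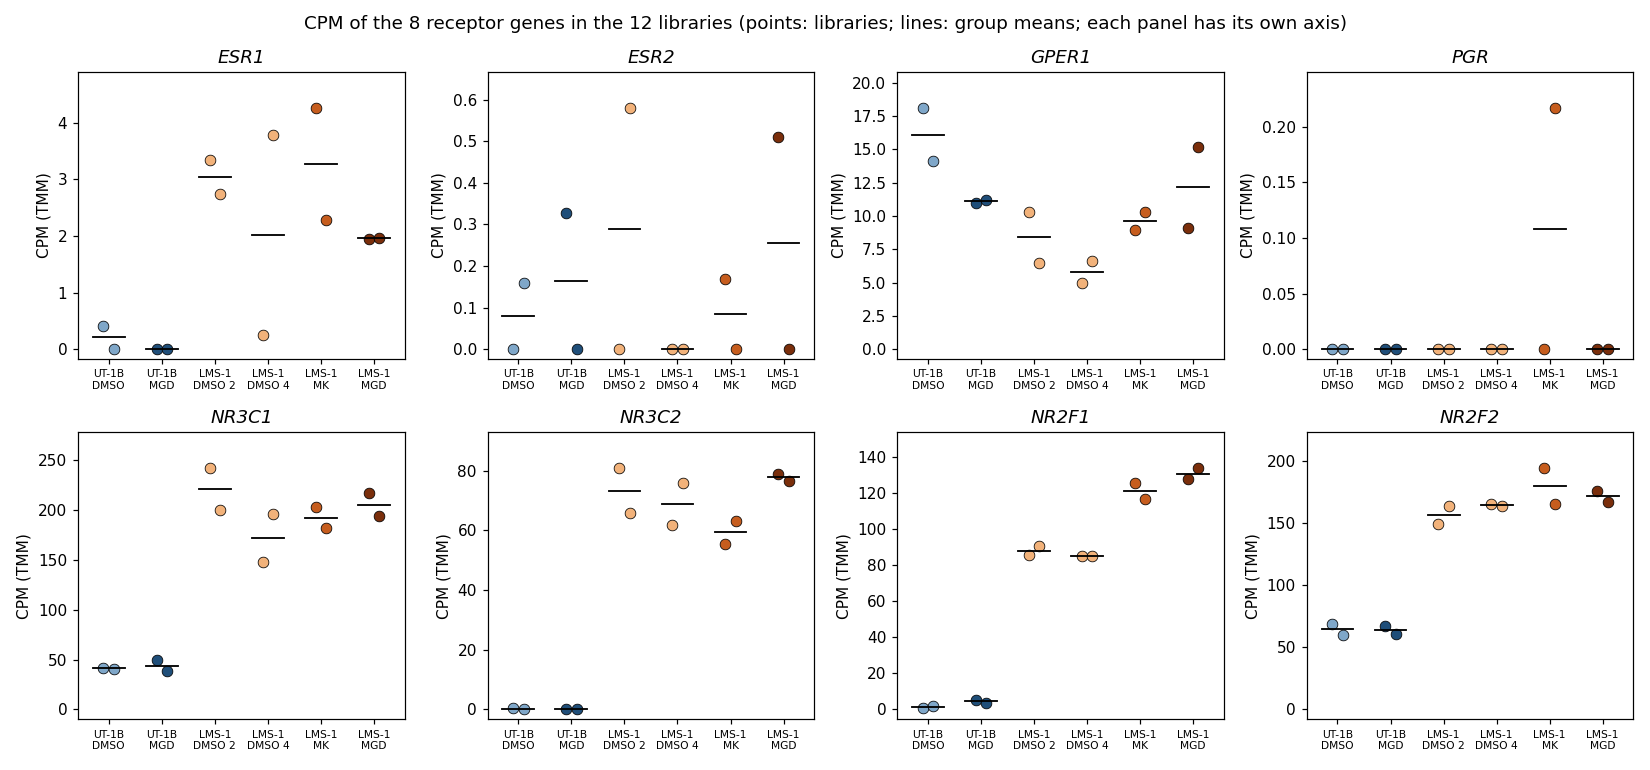
CPM (vertical axes, TMM-normalized, 1 scale per panel) of the 8 receptor genes in each library (points) with group means (lines), for SK-UT-1B (UT-1B) and SK-LMS-1 (LMS-1) after DMSO, MK-0752 (MK), or the combination (MGD). NR3C1, NR3C2, NR2F1, and NR2F2 were higher in every SK-LMS-1 library than in any SK-UT-1B library, and PGR was at 0 in 11 of the 12 libraries.

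The lines were first compared after DMSO, which asks how far their receptor genes differ without a drug. The glucocorticoid, mineralocorticoid, and both COUP receptor genes were higher in SK-LMS-1, and GPER1 was higher in SK-UT-1B. A gene was called differentially expressed when log2FC was 1 or more in either direction with an edgeR p, adjusted by Benjamini-Hochberg, under 0.05. Of the 8 receptor genes, 7 passed the filter on low counts and 5 of them were called, 4 higher and 1 lower in SK-LMS-1. The lines differed widely, since 31.1% of the 21114 tested genes were called (3584 higher and 2978 lower in SK-LMS-1), so a call between the lines is common for any gene. Fewer cells of a kind and less RNA per cell cannot be told apart in these bulk libraries.

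The glucocorticoid receptor gene NR3C1 was expressed in all 12 libraries. In SK-LMS-1 the DMSO libraries 2-1, 2-3, 4-1, and 4-2 had 242, 200, 148, and 196 CPM, against 41.6 and 40.7 CPM in SK-UT-1B. No SK-LMS-1 library was near the SK-UT-1B range. The mean was 196 ± 38.4 CPM (SD, n = 4) in SK-LMS-1 and 41.2 ± 0.659 CPM (SD, n = 2) in SK-UT-1B. The difference was a log2FC of 2.24 (SE 0.18, 95% interval 1.86 to 2.62), or 4.73-fold, with an adjusted p of 2.41e-09 in edgeR. After the combination the same gap remained, at 217 and 194 CPM in SK-LMS-1 and 49.7 and 38.4 CPM in SK-UT-1B (log2FC 2.22, SE 0.19, edgeR adjusted p = 1.06e-08).

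The mineralocorticoid receptor gene NR3C2 was present in SK-LMS-1 and nearly without reads in SK-UT-1B. The SK-LMS-1 DMSO libraries held 2819, 1817, 1527, and 2925 counts, which were 80.8, 65.8, 61.9, and 75.8 CPM. SK-UT-1B held 15 counts in DMSO library 4-1, which amount to 0.68 molecules at the reading rate of that library, and 0 in its other 3 libraries. After DMSO the log2FC was 8.23 (SE 0.74, 95% interval 6.52 to 9.94, edgeR adjusted p = 2.66e-05), and leaving out DMSO library 4-2 of SK-UT-1B, where the gene was at 0, gave 7.09. Without library 4-1 no SK-UT-1B DMSO reads were left, so no fold can be given. After the combination, SK-LMS-1 held 79.0 and 76.6 CPM while both SK-UT-1B libraries were at 0. Against a floor of 3 counts per library SK-LMS-1 was at least 826-fold higher, and the bound falls to 46.0-fold if the floor is 3 molecules per library (edgeR adjusted p = 2.17e-05). Per length, NR3C1 exceeded NR3C2 by 1.72 to 2.64 times within the 8 SK-LMS-1 libraries. In SK-UT-1B the ratio could be taken in 1 library, where it was 57.8.

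Both COUP genes were higher in SK-LMS-1, and the gap was much wider for NR2F1 than for NR2F2. In SK-LMS-1 the DMSO libraries had 85.6, 91.0, 85.2, and 85.0 CPM of NR2F1, and SK-UT-1B had 0.658 and 1.78 CPM (19 and 67 counts). These groups were far apart, and the SK-LMS-1 libraries lay within a narrow band of 86.7 ± 2.9 CPM (SD, n = 4). The log2FC was 6.11 (SE 0.32, 95% interval 5.44 to 6.78), or 69.1-fold, with an adjusted p of 1.78e-11 in edgeR. The fold depended on the SK-UT-1B libraries, since the log2FC was 5.55 without DMSO library 4-1 and 7.03 without 4-2.

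NR2F2 was strongly expressed in both lines, with 149, 164, 165, and 164 CPM in the DMSO libraries of SK-LMS-1 and 69.1 and 59.5 CPM in those of SK-UT-1B. The groups did not overlap, and the log2FC was 1.32 (SE 0.15, 95% interval 1.01 to 1.63), or 2.5-fold, with an adjusted p of 4.42e-07 in edgeR. After the combination the log2FC between the lines was 1.42 for NR2F2 (SE 0.16, adjusted p = 8.84e-07) and 4.88 for NR2F1 (SE 0.31, adjusted p = 2.62e-10), both in edgeR. NR2F1-AS1, the antisense transcript beside NR2F1, ran the same way, with 267 to 1068 counts in SK-LMS-1 and 0 to 10 in SK-UT-1B. If the counting did not use the strand of these stranded libraries, reads of NR2F1 and NR2F1-AS1 in the shared bases cannot be told apart.

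Of the estrogen receptor genes, GPER1 had reads in all 12 libraries, which stood for 4.62 to 31.2 molecules. GPER1 was at 18.1 and 14.1 CPM in SK-UT-1B after DMSO and at 10.3, 6.48, 4.95, and 6.58 CPM in SK-LMS-1, so that both SK-UT-1B libraries were above all 4. The log2FC in SK-LMS-1 was -1.21 (SE 0.37, 95% interval -1.98 to -0.44, edgeR adjusted p = 0.0118), and GPER1 was the one receptor gene called lower there. This call was lost without the SK-UT-1B DMSO library 4-1 (log2FC -1.07, edgeR adjusted p = 0.0942). After the combination GPER1 was at 9.13 and 15.2 CPM in SK-LMS-1 and at 11.0 and 11.2 CPM in SK-UT-1B, so the lines overlapped (log2FC 0.13, 95% interval -0.79 to 1.05, edgeR adjusted p = 0.877). The host span C7orf50 held 986 to 2178 counts in SK-LMS-1 and 293 to 1103 in SK-UT-1B, and its part in the GPER1 counts was not tested.

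ESR1, the main estrogen receptor gene of the uterus, was at a low level in SK-LMS-1. The DMSO libraries held 117, 76, 6, and 146 counts (3.35, 2.75, 0.243, and 3.78 CPM), and library 4-1 stood below the others. SK-UT-1B held 12 counts in DMSO library 4-1 and 0 in its other 3 libraries. After DMSO the difference was not called (log2FC 3.58, SE 1.7, edgeR adjusted p = 0.102), while DESeq2 called it (log2FC 3.56, adjusted p = 0.0284). The log2FC was 2.06 without the SK-LMS-1 DMSO library 4-2 and 2.57 without the SK-UT-1B DMSO library 4-2, and neither was called. It was also called by edgeR without the SK-LMS-1 DMSO library 4-1 (log2FC 4.04, adjusted p = 0.0491) and without the SK-UT-1B DMSO library 4-1 (adjusted p = 0.0252), which left no SK-UT-1B reads. After the combination, SK-LMS-1 held 65 and 48 counts and SK-UT-1B 0, which was called (edgeR adjusted p = 0.00966) and at least 20.8-fold against a floor of 3 counts per library. With 3 molecules per library as the floor the bound was 1.16-fold, and the call was lost without the SK-UT-1B library 3-1 (edgeR adjusted p = 0.0512). The ESR1 counts of SK-LMS-1 stood for at most 8.77 molecules per library. SYNE1, whose span covers part of ESR1, held 9890 to 15311 counts in SK-LMS-1 and 313 to 771 in SK-UT-1B, and its part in the ESR1 counts was not tested.

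ESR2 had reads in 5 of 12 libraries, with 16 and 17 counts in the SK-LMS-1 libraries DMSO 2-3 and combination 4-1, and 6 to 12 counts in 3 others. The largest value stood for 1.57 molecules. After DMSO the lines had 0.145 CPM (SK-LMS-1) and 0.0796 CPM (SK-UT-1B), each from 1 library with reads. The fitted log2FC of -1.32 (edgeR adjusted p = 0.649) has the opposite sign to these means, with DMSO set 4 of SK-LMS-1 at 0, so no direction can be read for ESR2. PGR, the progesterone receptor gene, had 8 counts in the SK-LMS-1 MK-0752 library 2-3 and 0 in the other 11 libraries, so it did not pass the filter and was not tested. The 8 counts stood for 0.413 molecules, and at this reading rate the zeros do not show that PGR RNA was absent.

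Of the 21114 genes, 25.4% were called between the lines after the combination. Here 5 of the 7 tested receptor genes were called, all higher in SK-LMS-1, namely NR3C1, NR3C2, NR2F1, NR2F2, and ESR1. GPER1, called after DMSO, was not among them.

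**Figure D2:**
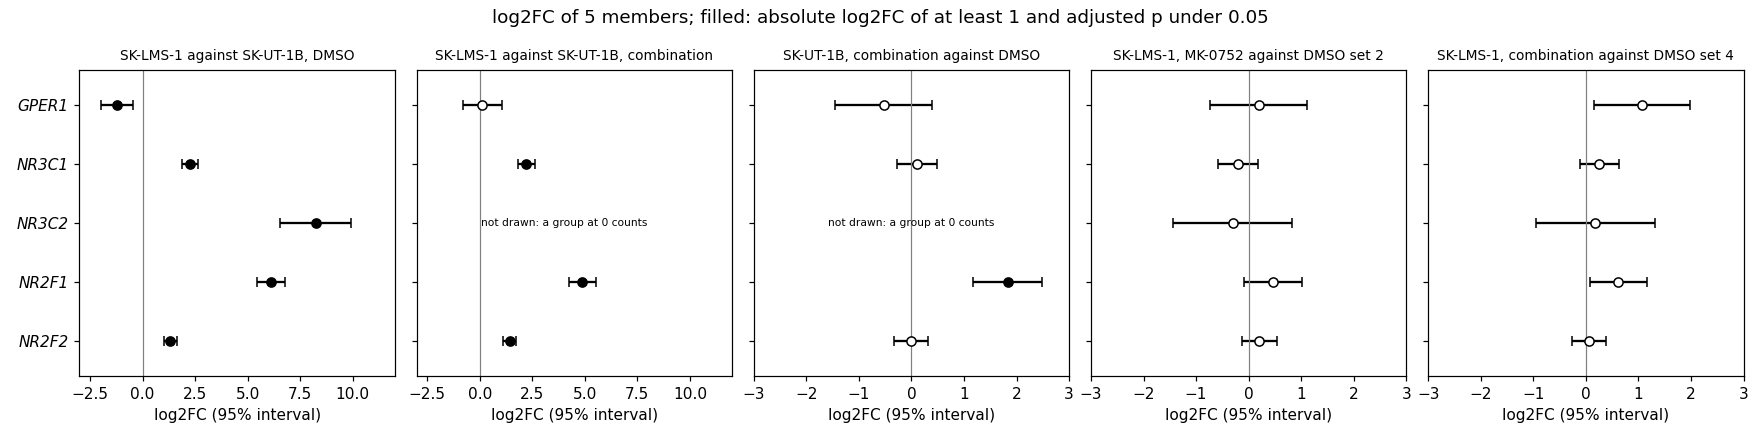
Log2FC (horizontal axes) with 95% intervals from edgeR for GPER1, NR3C1, NR3C2, NR2F1, and NR2F2 in 5 comparisons, with filled points where the gene was called, and no point where a group had 0 counts. The line comparisons had 5 and 3 filled points among those drawn, whereas among the drug comparisons NR2F1 in SK-UT-1B, at 1.83, was the one filled point.

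Levels were compared between genes as CPM per kilobase of exon. After DMSO the order in SK-LMS-1 was NR2F2 (24.8 ± 1.19, SD, n = 4), NR3C1 (21.4 ± 4.2), NR2F1 (19.8 ± 0.661), NR3C2 (10.8 ± 1.32), GPER1 (2.27 ± 0.73), ESR1 (0.185 ± 0.115), ESR2 (0.0121), and PGR (0). The libraries of NR2F2 and NR3C1 overlapped, as did those of NR3C1 and NR2F1, those of ESR1 and ESR2, and those of ESR2 and PGR. In SK-UT-1B the order was NR2F2 (9.93 ± 1.05, SD, n = 2), GPER1 (5.15 ± 0.903), NR3C1 (4.5 ± 0.0719), NR2F1 (0.278 ± 0.181), NR3C2 (0.0393), ESR1 (0.0151), ESR2 (0.00667), and PGR (0). GPER1 and NR3C1 overlapped there and exchanged places when the longest transcript was taken as the length. NR3C2, ESR1, ESR2, and PGR overlapped each other in that line, since they rested on 15, 12, 6, and 0 counts, each under 1 molecule, so they have no order there. NR2F2 thus had the highest mean in both lines after DMSO, though not in every SK-LMS-1 library, and the membrane receptor GPER1 stood beside the glucocorticoid receptor gene in SK-UT-1B alone. After the combination NR2F1 came first in SK-LMS-1 at 29.8, above NR2F2 at 26.4 CPM per kilobase. After MK-0752 alone NR2F2 was at 27.8 and NR2F1 at 27.7, with overlapping libraries.

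Each treatment was then compared with the DMSO libraries of its line. In SK-UT-1B, NR2F1 was the one receptor gene called, with more NR2F1 after the combination. It was at 0.658 and 1.78 CPM in the DMSO libraries 4-1 and 4-2 and at 5.33 and 3.51 CPM in the treated libraries 3-1 and 3-3, so both treated libraries were above both controls. How often other genes separate in this way between 2 groups of 2 libraries was not counted beside it. The log2FC was 1.83 (SE 0.31, 95% interval 1.18 to 2.48), or 3.54-fold, with an adjusted p of 0.00694 in edgeR, and 0.559% of all tested genes were called in this comparison. The counts were 19 and 67 against 195 and 99, which stood for 0.861 and 3.88 against 11.6 and 5.26 molecules. The call was lost without the DMSO library 4-1 (log2FC 1.28, edgeR adjusted p = 0.0537), and the log2FC was 2.75 without DMSO library 4-2. It was also lost when the model held only the 4 libraries of the comparison (log2FC 1.85, edgeR adjusted p = 0.654), in which 0 genes of the whole table were called. Over the alternatives other than leaving out libraries, the adjusted p lay between 1.51e-09 and 0.654.

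The other receptor genes of SK-UT-1B were not called after the combination. NR2F2, at 67.5 and 60.4 CPM after treatment, had a log2FC of -0.01 (95% interval -0.34 to 0.32), and NR3C1 had 0.1 (95% interval -0.28 to 0.48), intervals that leave out a change of 1 on the log2 scale. GPER1 was at 11.0 and 11.2 CPM after the combination, below both DMSO libraries, with a log2FC of -0.53 (95% interval -1.45 to 0.39, edgeR adjusted p = 0.769). ESR1 and NR3C2 were at 0 in both treated libraries and had reads in 1 of 2 DMSO libraries, with 12 and 15 counts. Together with NR2F1 they made up the 3 receptor genes with an unadjusted p under 0.05, where 10.5% of all tested genes had one, and DESeq2 called 1 receptor gene, as edgeR did.

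In SK-LMS-1, no receptor gene was called after either treatment. After MK-0752, 0.251% of all tested genes were called and 0 of 7 receptor genes, with 0 at an unadjusted p under 0.05 in edgeR and 0 called by DESeq2. After the combination, 0.0237% of all genes were called and 0 of 7 receptor genes, with 2 (NR2F1 and GPER1) at an unadjusted p under 0.05 in edgeR, as 4.33% of all genes were, and 0 called by DESeq2. Between the DMSO sets, 0% of all genes were called by edgeR (1197 at an unadjusted p under 0.05, and 30 called by DESeq2), and 0 of 7 receptor genes by either tool, with 0 at an unadjusted p under 0.05.

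NR2F1 in SK-LMS-1 was at 126 and 117 CPM after MK-0752 and at 128 and 134 CPM after the combination. All 4 treated libraries were thus above all 4 DMSO libraries, which reached at most 91.0 CPM. This separation was not set against how often other genes separate in the same way. The log2FC was 0.46 after MK-0752 (SE 0.26, 95% interval -0.09 to 1.01, edgeR adjusted p = 0.806) and 0.62 after the combination (SE 0.26, 95% interval 0.07 to 1.17, edgeR adjusted p = 0.907). A comparison of both treatments with both DMSO sets, chosen after these NR2F1 values were seen, gave a log2FC of 0.54 (SE 0.18, 95% interval 0.16 to 0.92), or 1.45-fold. Its adjusted p was 0.436 in edgeR, so it was not called, and 0.133% of all genes were called. Over the alternatives other than leaving out libraries, its adjusted p ran from 0.00231, with only the 8 SK-LMS-1 libraries in the model, to 0.676, and the log2FC was always below 1. With 0 of 7 receptor genes called in this comparison, 1, NR2F1, had an unadjusted p under 0.05, against 7.43% of all genes, and DESeq2 called 0. The NR2F1 values prompted the comparison, so its p and interval for NR2F1 are no separate test.

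**Figure D3:**
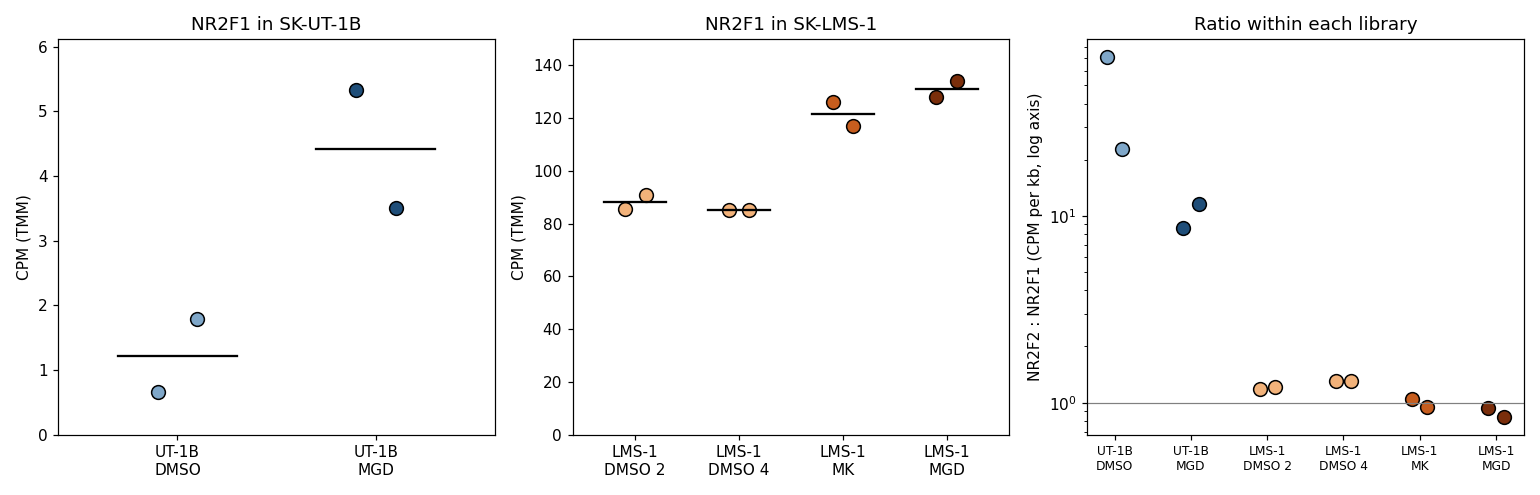
NR2F1 in each library in CPM for SK-UT-1B (left) and SK-LMS-1 (middle), with group means as lines, and the ratio of NR2F2 to NR2F1 per exon length within each library on a log axis (right). Treated libraries were above the DMSO libraries of their line in both panels, and the ratio was 8.58 to 71.1 in SK-UT-1B and 0.842 to 1.31 in SK-LMS-1. These separations were not set against how often other genes show one.

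The balance between the COUP genes followed NR2F1. The ratio of NR2F2 to NR2F1 per length was 1.18, 1.22, 1.31, and 1.30 in the SK-LMS-1 DMSO libraries. MK-0752 libraries had 1.05 and 0.953, and combination libraries 0.932 and 0.842. In SK-UT-1B, DMSO libraries had 71.1 and 22.7, and combination libraries 8.58 and 11.6. Every treated library had a lower ratio than the DMSO libraries of its line, but the ratio holds the same NR2F1 values and is no separate result. NR2F2 itself was at 194 and 165 CPM in SK-LMS-1 after MK-0752 (log2FC 0.2, 95% interval -0.13 to 0.53) and at 176 and 167 CPM after the combination (log2FC 0.06, 95% interval -0.27 to 0.39).

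GPER1 was at 9.13 and 15.2 CPM in SK-LMS-1 after the combination and at 4.95 and 6.58 CPM in DMSO set 4. The log2FC was 1.07 (SE 0.44, 95% interval 0.15 to 1.99, edgeR adjusted p = 0.907), which was not called, and DMSO library 2-1, at 10.3 CPM, lay above the lower of the treated libraries. Against all 4 DMSO libraries the log2FC was 0.78. NR3C1 lay within its DMSO range in all 4 treated libraries, and NR3C2 did so in 3 of 4, with 55.5 CPM in the MK-0752 library 2-2 below it. With MK-0752 their log2FC was -0.2 and -0.3, and with the combination it was 0.26 and 0.18, none of them called. For NR3C2 the intervals reached from -1.43 to 0.83 and from -0.95 to 1.31, so a change of 2-fold was not shown to be absent.

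Whether the combination acted differently on the lines was tested as the difference of their log2FC. For all genes 0.232% were called, and 0 of 7 receptor genes, while 3 (NR2F1, GPER1, and NR3C2) had an unadjusted p under 0.05 in edgeR, against 7.67% of all genes, and DESeq2 called 0. NR2F1 had a difference of -1.21 (SE 0.4, 95% interval -2.05 to -0.37, edgeR adjusted p = 0.461), the larger effect being in SK-UT-1B. It was called without the SK-UT-1B DMSO library 4-2 (-2.13, edgeR adjusted p = 0.0128), without the SK-UT-1B library 3-3 (-1.46, edgeR adjusted p = 0.0369), and with no filter on low counts (-1.22, edgeR adjusted p = 0.0264). It shrank without the SK-UT-1B libraries DMSO 4-1 (-0.7, edgeR adjusted p = 0.804) and combination 3-1 (-0.86, edgeR adjusted p = 0.765). GPER1 had a difference of 1.61 (SE 0.62, 95% interval 0.31 to 2.91, edgeR adjusted p = 0.57). For NR3C2, SK-UT-1B had 15 counts in 1 DMSO library and 0 in its treated libraries, so no size can be read. Its fitted difference ran from 0.14 to 7.23 when a library was left out. For the effect of MK-0752 minus that of the combination in SK-LMS-1, 0.0379% of all genes were called and 0 of 7 receptor genes, with 0 at an unadjusted p under 0.05 in edgeR and 0 called by DESeq2. There NR2F1 differed by -0.16 on the log2 scale (95% interval -0.92 to 0.6).

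Genes that these receptors are known to control were then followed from lists. Of 15 glucocorticoid-induced genes, 14 were tested between the lines after DMSO, with 7 called higher and 1 lower in SK-LMS-1, where NR3C1 was higher too. Their median log2FC was 1.06, beside 0 over all genes tested, and 31.1% of all genes were called in this comparison. SGK1, a kinase that raises sodium uptake, was at 72.7 ± 10.2 CPM (SD, n = 4) in SK-LMS-1 and 2.92 ± 0.42 CPM (SD, n = 2) in SK-UT-1B (log2FC 4.64, SE 0.3, edgeR adjusted p = 1.55e-10). ERRFI1, a feedback inhibitor of the EGF receptor, was at 249 and 13.2 CPM (log2FC 4.24), MT2A, a metallothionein, at 704 and 67 CPM (log2FC 3.38), and CRISPLD2 at 12.2 and 1.53 CPM (log2FC 3.0, a call lost in 5 of 12 alternatives, with 4.13 and 2.34 without the SK-UT-1B DMSO libraries 4-1 and 4-2). FKBP5, a chaperone that restrains the glucocorticoid receptor and is a common readout of its activity, went the other way. It was at 47 ± 7.77 CPM in SK-LMS-1 and 140 ± 9.2 CPM in SK-UT-1B (log2FC -1.58, SE 0.16, edgeR adjusted p = 1.13e-07), and was named in this list after its values were seen. After the combination 6 of the 14 genes were called higher and 0 lower, where 25.4% of all genes were called, and FKBP5, at 55.3 and 103 CPM, was not called (log2FC -0.89). The change in the FKBP5 gap with the combination was not called either (edgeR adjusted p = 0.447).

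**Figure D4:**
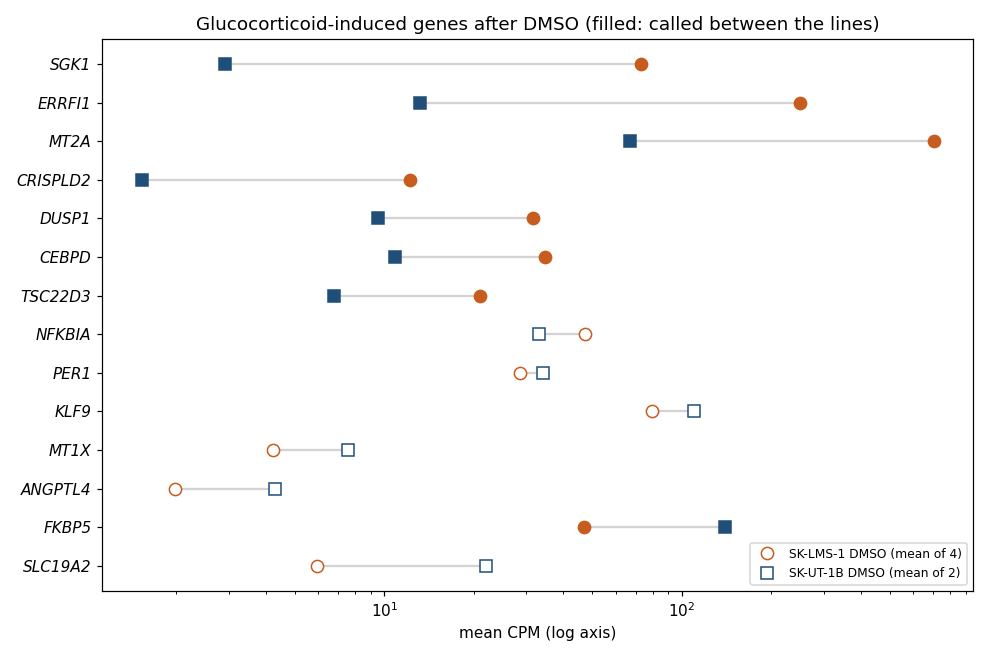
Mean CPM (log axis) of the 14 tested glucocorticoid-induced genes after DMSO in SK-LMS-1 (circles, 4 libraries) and SK-UT-1B (squares, 2 libraries), filled where the gene was called between the lines. SGK1, at 72.7 and 2.92 CPM, had the widest gap, and FKBP5, at 47 and 140 CPM, was the one called gene with more in SK-UT-1B.

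After MK-0752 in SK-LMS-1, 3 of the 14 tested glucocorticoid-induced genes were called while NR3C1 was not, and 0.251% of all genes were called. SGK1 fell from 75.5 ± 8.94 to 31.3 ± 3.9 CPM (SD, n = 2 each, log2FC -1.27, SE 0.27, edgeR adjusted p = 0.0439) and ERRFI1 from 254 ± 39.7 to 100 ± 8.23 CPM (log2FC -1.34, SE 0.26, edgeR adjusted p = 0.0491). ANGPTL4, which inhibits lipoprotein lipase, rose from 1.57 ± 1.53 to 27.8 ± 9.51 CPM (log2FC 4.16, SE 0.83, edgeR adjusted p = 0.0316), and its log2FC was 3.39 without DMSO library 2-1 and 5.83 without DMSO library 2-3. The list's median log2FC was -0.07, beside 0 over all genes. After the combination in SK-LMS-1 the 3 genes were at 58.6, 224, and 4.36 CPM and were not called. The difference between MK-0752 and the combination, which held MK-0752 at a lower dose, was not called for these 3 genes, with edgeR adjusted p of 0.911, 0.822, and 0.844. These calls were near the threshold, since SGK1 and ERRFI1 were each lost in 5 of 11 alternatives and ANGPTL4 in 4 of 11. SGK1 and ERRFI1 were lost without any one of the 4 libraries compared (edgeR adjusted p 0.122 to 0.533 for SGK1 without a DMSO library and 0.276 to 0.546 without a treated one), while ANGPTL4 was kept without DMSO library 2-3 alone (edgeR adjusted p = 0.0388), and no log2FC changed sign.

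Of 12 estrogen-induced genes, 9 were tested between the lines after DMSO, with 4 called higher and 1 lower in SK-LMS-1 and a median log2FC of 0.4. The share of all genes called, 31.1%, and their median of 0 stand beside this and the lists that follow. GREB1, a cofactor of the estrogen receptor and one of its best known targets, was at 0.249 CPM in SK-LMS-1 and 44.9 CPM in SK-UT-1B (log2FC -8.05, SE 0.6, edgeR adjusted p = 9.67e-08). The log2FC was -10.14 without the SK-LMS-1 DMSO library 2-3, which left DMSO set 2 with no GREB1 reads, so that size cannot be read. ESR1 was at 0 in 3 of the 4 SK-UT-1B libraries, which at this reading rate does not show that ESR1 RNA was absent. CXCL12, a chemokine, and AREG, an EGF receptor ligand, were at 0 in the SK-UT-1B DMSO libraries and at least 113-fold and 53.1-fold higher in SK-LMS-1 against a floor of 3 counts per library, or 5.68-fold and 2.66-fold against 3 molecules. CA12, a carbonic anhydrase, and CTSD, a lysosomal protease, were called higher as well (log2FC 1.7 and 1.51, CTSD being named after its values were seen). TFF1 and TFF3, classic estrogen targets of breast epithelium, were at or under 3 counts in every library. After MK-0752, GREB1 was called higher in SK-LMS-1, at 1.68 against 0.0724 CPM, a gene named after its values were seen, since it was under the limit of 100 counts. That call was lost in 8 of 11 alternatives. Its log2FC was 3.5 without DMSO library 2-1 and 2.81 against all 4 SK-LMS-1 DMSO libraries. Without DMSO library 2-3 no GREB1 reads were left in DMSO set 2, so no fold can be given there.

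Of 11 progesterone-responsive uterine genes, 9 were tested after DMSO, with 3 called higher and 3 lower in SK-LMS-1 and a median log2FC of 1.27. BMP2, a growth factor of the stroma, was at 30.7 CPM in SK-LMS-1 and 0 in SK-UT-1B, at least 334-fold against the floor of 3 counts and 16.7-fold against 3 molecules, and HOXA11, a patterning gene of the uterus, was also higher in SK-LMS-1 (log2FC 3.96, with 5.34 and 3.22 without the SK-UT-1B libraries 4-1 and 4-2). HAND2, a stromal progesterone target, was lower in SK-LMS-1, with 0 to 24 counts against 158 to 210 (log2FC -5.99). The log2FC was -9.23 and -7.24 without the SK-LMS-1 DMSO libraries 2-1 and 4-1. DMSO set 4 was at or under 3 counts per library and the reads of set 2 came from library 2-1, so these 2 sizes cannot be read. PRL, the prolactin gene of decidual stroma, was called lower (log2FC -3.37, edgeR adjusted p = 0.0485), but the groups overlapped, at 0 to 79 and 50 to 185 counts. This call was lost in 5 of 12 alternatives, with a log2FC of -1.89 without the SK-UT-1B library 4-1 and -5.3 without the SK-LMS-1 library 2-3. SK-LMS-1 DMSO set 2 was at or under 3 counts of PRL per library, so the size without library 2-3 cannot be read. IGFBP1, a marker of decidual stroma, and IHH, the epithelial progesterone target, were at or under 3 counts in every library. In SK-UT-1B after the combination BMP2 had 25 and 4 counts against 0 in DMSO, which was called (edgeR adjusted p = 0.0402) but named after its values were seen and lost in 4 of 9 alternatives. Of 7 membrane progestin receptor genes, all were tested, with 2 called higher in SK-LMS-1, PAQR8 (log2FC 5.38) and PAQR7 (log2FC 1.14), and 2 lower, PAQR5 (log2FC -7.85) and PAQR9 (log2FC -6.26, named after its values were seen). The DMSO libraries of SK-LMS-1 had 0 to 8 counts of PAQR5 and 0 to 12 of PAQR9. Those of SK-UT-1B had 173 to 184 and 13 to 150. Both genes were at 0 in SK-LMS-1 DMSO set 4, so the size of these 2 differences is uncertain. Without the SK-UT-1B DMSO library 4-2, PAQR7 and PAQR9 lost their calls (log2FC 0.96 and -3.95), PAQR9 being lost in 3 of 12 alternatives in all, and PAQR8 was at 4.7, against 6.44 without 4-1. Without the SK-LMS-1 DMSO library 2-3 no SK-LMS-1 DMSO reads of PAQR5 and PAQR9 were left, so no fold can be given there. These lists split in both directions while PGR had reads in 1 of the 12 libraries.

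The partners of the receptors were also compared between the lines after DMSO. Of 12 receptor chaperones, 5 were called lower in SK-LMS-1 and 0 higher, with a median log2FC of -0.64, where 31.1% of all genes were called in either direction. These were FKBP5, the cochaperones STIP1 (-1.32), BAG1 (-1.14), and FKBP4 (-1.13), and HSP90AA1 (-1.11, named after its values were seen), an HSP90 gene. The call of BAG1 was lost without the SK-LMS-1 DMSO library 4-2 (-1.0) and that of HSP90AA1 without the SK-UT-1B DMSO library 4-2 (-0.97). Among 30 other nuclear receptor genes, 27 were tested, with 8 called higher and 3 lower. Among those with at least 100 counts the widest differences were RARB (7.05), NR4A2 (6.35), PPARG (6.12), and RORA (3.57), all higher. The lower ones, named after their values were seen, were THRA (-2.04), RARG (-1.9), and NR5A1, which had 65 and 106 counts in SK-UT-1B and 0 in the SK-LMS-1 DMSO libraries. RARB, NR4A2, and PPARG were at 0 in the SK-UT-1B DMSO library 4-1, so these folds rest on 17, 14, and 20 counts in library 4-2, and without 4-1 the log2FC was 6.12, 5.39, and 5.17. Without 4-2 no SK-UT-1B DMSO reads of these genes were left. Of 19 genes of steroid synthesis and metabolism, 10 were tested, with 2 called in each direction. HSD17B2, which inactivates estradiol, exceeded the floor of SK-UT-1B at least 82.5-fold in SK-LMS-1 (4.13-fold with 3 molecules as the floor), and STS, the steroid sulfatase gene, was higher too (1.29, with 1.99 without the SK-UT-1B library 4-1 and the call lost at 0.79 without 4-2). The lower ones, CYP11A1 and HSD11B2, were named after their values were seen, and HSD11B2, whose enzyme inactivates cortisol and so shields the mineralocorticoid receptor, was at 0.136 CPM in SK-LMS-1 and 1.97 CPM in SK-UT-1B (edgeR adjusted p = 0.0471, lost in 7 of 11 alternatives). CYP19A1, the aromatase gene, was at or under 3 counts in every library of both lines. Between the lines after the combination, the calls in SK-LMS-1 were 0 higher and 1 lower (BAG1) for the chaperones (median log2FC -0.36), 4 and 1 for the estrogen-induced genes, 3 and 3 for the progesterone-responsive genes, 2 and 1 for the membrane progestin receptors, 10 and 3 for the other nuclear receptors, and 1 and 0 for steroid synthesis and metabolism, beside 25.4% of all genes called.

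The protein-coding genes whose levels ran most like each receptor gene over the 12 libraries were ranked by Pearson's r of log2 CPM. This likeness mostly restates the difference between the lines, which all 12 points share. NR2F1 ran most like SEMA3E (r = 0.998), MOXD1 (0.996), and MAML2 (0.996), and NR2F2 most like C6orf141 (0.995), TLL1 (0.994), and CAMK2D (0.994). NR3C1 ran most like PCGF5 (0.995), DIO2 (0.995), and YIPF6 (0.994), and NR3C2 most like H2AC8, MYCT1, and NTNG1 (each 0.999). For these 4 receptor genes, between 1282 and 1523 genes had an r above 0.95, so the leading names stand among many. ESR1 ran most like CDIN1 (0.975), GDAP2 (0.966), and VMP1 (0.96), with 9 genes above 0.95. GPER1 had none above 0.95, and its nearest was RAPGEF6 (0.879), followed by NCBP2AS2 (0.868) and HSDL1 (0.867). For ESR2 the nearest were ARMT1 (0.799), SGCB (0.77), and MIER1 (0.757), on counts of at most 1.57 molecules.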

How the data were processed

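The data are 12 RNA-seq libraries in 6 groups of 2, from the lines SK-LMS-1 and SK-UT-1B. The authors trimmed reads with Trim Galore 0.3.7, aligned them to hg38 with STAR 2.7.9a, used SortMeRNA to remove ribosomal RNA, and deposited read counts per gene that were not normalized. The gene annotation, the strand setting, and any removal of duplicate reads were not given in the sources used here. Of 60649 identifiers, 60463 matched GENCODE v44, which gave coordinates and exon lengths.

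Counts were tested in R 4.3.3 with edgeR 4.0.16 (TMM, filterByExpr, robust quasi-likelihood fit over the 6 groups, 21114 genes), and p-values were adjusted by Benjamini-Hochberg over all of them. Intervals are 95% intervals of log2FC and cover the spread between libraries. The floor was 3 counts per library. Named list genes were the called ones with the largest log2FC, at most 4 a list, whose higher group averaged at least 100 counts. Other called genes are marked as named after their values were seen. List genes named without a call, such as those with few or no reads, fall outside this rule and are not marked. The receptor genes and lists were chosen with earlier results of these data known. The list of coactivators and corepressors is not reported here. The test was run on simulated data first. Alternatives were DESeq2 1.42.0, its size factors, other filters, a replicate block, fewer libraries in the model, all 4 SK-LMS-1 DMSO libraries as control, and each library left out in turn on the same genes. Promoter sequences came from RefSeq. Total counts were 25250057 to 40709885 per library.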

Additional observations from a re-analysis of the deposited data

Results flagged for a closer look

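Dixon's ratio, the gap between an extreme library and its neighbour over the whole range, was taken for 7 receptor genes in the 4 SK-LMS-1 DMSO libraries, where chance puts it above the 95% critical value in about 1 of 20 groups. It was above that value in 3 of the 7, at 1.0 for ESR2, 0.893 for NR2F1, whose library 2-3 was at 91.0 CPM above 85.0 to 85.6 CPM, and 0.899 for NR2F2, whose library 2-1 was at 149 CPM below 164 to 165 CPM. ESR2 had 16 counts in library 2-3 and 0 in the others, which fixes its ratio at 1.0 whatever its spread, so it should not be set against the chance rate. The NR2F1 and NR2F2 gaps are small beside the differences between the lines. The NR2F1 log2FC between the lines after DMSO was 6.09 without library 2-3.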

How the results depend on the processing

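Of 643 log2FC values of receptor genes under alternatives, 600 kept their direction and their side of the threshold, 4 lost it, 10 passed it, and 29 changed sign, and none of the 29 belonged to a called difference. NR3C1, NR3C2, NR2F1, and NR2F2 stayed called between the lines with either DMSO or the combination in every alternative run. In SK-UT-1B after the combination, 1 receptor gene was called, 2 with no filter on low counts (NR3C2 and NR2F1), 0 with only the libraries of the comparison, and 0 to 2 when a library was left out. For the difference of combination effects, 0 were called, 2 with no filter (NR3C2 and NR2F1), and 0 to 2 with a library left out. With no filter, edgeR's median prior degrees of freedom were infinite, against 13.2 in the reported fit.

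Log2FC ranges that crossed 0 when a library was left out were, for ESR1, -0.42 to 0.48 after MK-0752, -0.95 to 2.99 after the combination in SK-LMS-1, -2.89 to 1.05 between these effects, -3.63 to 0.31 between the DMSO sets, and -0.06 to 8.71 for the difference of combination effects. For ESR2 they were -4.46 to 3.11 and -5.44 to 6.01 between the lines with DMSO and with the combination, -4.48 to 5.42 after the combination in SK-UT-1B, -6.23 to 4.52 after MK-0752, and -1.0 to 10.49 for the difference of combination effects. For GPER1 they were -0.1 to 0.57 after MK-0752 and -0.28 to 0.45 between the lines after the combination. After the combination in SK-UT-1B, NR2F2 ran from -0.12 to 0.07 and NR3C1 from -0.13 to 0.27, and for the difference of combination effects from -0.04 to 0.17 and from -0.03 to 0.38. NR3C2 ran from -0.24 to 0.07 between the DMSO sets. The cause was not tested.

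Between libraries of a line that share their last number, deviations from group means correlated at -0.012, 0.041, and -0.09 over 11494 genes. These values gave no sign that the number pairs libraries. With groups of 2 libraries and many genes at 0, they cannot exclude a pairing. A replicate block changed no call of a receptor gene, gave 186 genes in place of 118 in SK-UT-1B, 15 in place of 8 between the SK-LMS-1 effects, and 5 in place of 0 between the DMSO sets, and changed the sign of log2FC for ESR2 between the lines after DMSO (0.68), NR2F2 in SK-UT-1B (0.02), and ESR1 after MK-0752 (-0.04), after the combination in SK-LMS-1 (0.03), and between these effects (-0.06).

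Over all genes, DESeq2 called 369 in SK-UT-1B after the combination, 131 after MK-0752, 30 after the combination in SK-LMS-1, 143 for the difference of combination effects, 41 between the SK-LMS-1 effects, and 91 for both treatments together, and no filter gave 420, 175, 73, 303, 89, and 113, with 76 between the DMSO sets. A mean of at least 50 counts gave 35, 1, 24, and 3 for the second to the fifth of these. With only the libraries of the comparison they were 0, 99, 0, 20, 27, and 56, and with a library left out 140 to 812, 14 to 45, 0 to 29, 21 to 498, 3 to 22, and 11 to 41, with 0 to 39 between the DMSO sets. With the longest transcript as the length, GPER1 ranked 3 and NR3C1 2 in SK-UT-1B after DMSO, and ESR2 7 and PGR 8 in SK-LMS-1 after MK-0752.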
